A study of Mus musculus with 24 samples.

Results

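Hearts of mice killed 16 h after doxorubicin were compared with hearts of vehicle mice of the same time. The comparison used the 3 doxorubicin libraries (DOX) and the 3 vehicle libraries (V) of the 16 h table, 6 of the 24 samples of the series, and all 10393 genes of that table. All mice were wild type (WT), the tissue was heart, and doxorubicin was given at 25 mg/kg; the protocol names no route, number of injections, strain, sex or age. The remaining groups of that table received hesperitin at 10 mg/kg/day (H) or both agents (DOXH), and their libraries entered the fit to estimate the spread between libraries. They also entered the scaling of the counts and the mean levels by which genes were classed and selected. The DOXH libraries lay far apart: DOXH replicate 3 had correlations across genes of 0.986 to 0.990 with the V libraries and DOXH replicate 2 of 0.974 to 0.987 with the DOX libraries. Without the 3 DOXH libraries, a choice made after seeing the data, 4150 genes were called in place of 3352. The 72 h table, from other mice, was used as a second look at the genes described. The labels do not say whether each library came from 1 mouse, so the p-values measure the spread between these libraries.

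Doxorubicin is an anthracycline that inserts between the bases of DNA and traps topoisomerase II on broken strands. It also displaces histones from chromatin, and its quinone ring takes electrons from flavoenzymes and passes them to oxygen, with iron as a partner in the chemistry. Heart muscle cells divide rarely, carry the beta form of topoisomerase II, and are the cells in which the drug's dose-limiting toxicity appears. The pathways described here cover chromatin and repair, RNA synthesis and decay, signalling, metabolism and cell structure. The responses of p53 targets, interferon genes, sarcomere genes and oxidative phosphorylation are not retold.

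The V and DOX libraries held 10285599 to 11074450 rounded expected counts each, of which 36.4% to 39.3% came from mitochondrial genes. A gene was called at an adjusted p under 0.05 in edgeR's quasi-likelihood test with Benjamini-Hochberg adjustment over all genes; 1624 of 10393 genes (15.6%) rose in DOX and 1728 (16.6%) fell, 32.3% together. Only 91 genes (0.876%) differed by more than 1.5-fold in a test against that fold. Leaving out V replicate 1 left 1928 calls, leaving out V replicate 3 left 2021, and leaving out DOX replicate 1 left 2230. The median log2 fold change over all genes was 0.02. Values below are in CPM, counts scaled by library size after TMM normalisation, and each log2 fold change is DOX against V with its standard error, 3 libraries against 3. Every gene said to have risen or fallen, or given with its change alone, kept its call with each of the 6 libraries left out in turn, unless its sentence says otherwise. Counts of called list members were less stable: 39 of 52 counts of at least 5 and 43 of 70 counts of 1 to 4 moved by over 1.5 times with some library left out. Those of at least 5 are given with their values without the libraries concerned, and the smaller ones are given from the fit on all libraries alone.

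The summed level of the 7 cardiomyocyte markers was 48076 to 54942 CPM in V and 27305 to 29791 CPM in DOX, and 7 of 7 fell. Fibroblast, endothelial and macrophage markers had sums that overlapped between the groups, with 0 of 7, 2 of 7 and 1 of 7 members fallen. Summed mural markers were 1233 to 1236 CPM in V and 1058 to 1111 CPM in DOX, with 2 of 7 fallen. Summed neutrophil markers were 21.9 to 67.9 CPM in V and 132 to 241 CPM in DOX, with 0 of 5 members called and a median log2 fold change of 2.03. T cell, B cell, adipocyte and lung markers were not among the genes of the table. In bulk tissue, fewer cells of a type and less RNA per cell cannot be told apart.

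Histone transcripts rose together. Of the 28 histone genes listed, 16 were in the table; 13 of these rose (all genes, 15.6%), 1 fell (all genes, 16.6%), and their median log2 fold change was 0.99. The rule that kept genes in the deposited table is not given in the sources used here, so the count covers only the histone genes that passed it. Histones package DNA, and most canonical histone mRNAs end in a stem-loop in place of a poly(A) tail. The libraries were poly(A)-selected, so these are levels of the polyadenylated transcripts. The count of risen members was 10 to 12 with any 1 of the 6 libraries left out.

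The linker histone gene H1f2 (chromosome 13, 23738808 to 23740367, GRCm38) stood at 48.2, 45.8 and 48.6 CPM in the V libraries and 239, 259.8 and 210.1 CPM in the DOX libraries. That is a 4.97-fold higher mean level by the fit (log2 fold change 2.31 ± 0.35, adjusted p = 0.0027), and the groups lay far apart. H4c8, a gene for histone H4, had 7.81, 8.25 and 9.53 CPM in the V libraries and 29.6, 38.2 and 31.6 CPM in the DOX libraries (log2 fold change 1.96 ± 0.32). H4 genes encode near-identical proteins and share much sequence, so how reads were divided among them is uncertain. H2aw, an H2A gene on chromosome 11, had 8.97, 9.7 and 10.2 CPM in the V libraries and 21.5, 29.9 and 21 CPM in the DOX libraries (log2 fold change 1.33 ± 0.16). H2bc4, an H2B gene of the chromosome 13 cluster, rose by 1.20 ± 0.19.

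The promoter windows of 3 of these genes are shown because the genes moved together while lying on different chromosomes or apart in a cluster. Each line gives the 250 bases before the start of the gene, 5′ to 3′ on the gene's own strand, from RefSeq on GRCm38.p6. Capitals mark CCAAT on either strand, a box common in histone promoters; TATAAA was also searched on both strands.
H1f2: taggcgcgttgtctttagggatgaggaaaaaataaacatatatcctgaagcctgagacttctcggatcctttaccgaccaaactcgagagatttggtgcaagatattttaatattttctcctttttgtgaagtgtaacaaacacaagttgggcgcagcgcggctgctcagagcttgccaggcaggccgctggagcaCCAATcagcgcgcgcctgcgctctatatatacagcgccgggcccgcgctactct
H2aw: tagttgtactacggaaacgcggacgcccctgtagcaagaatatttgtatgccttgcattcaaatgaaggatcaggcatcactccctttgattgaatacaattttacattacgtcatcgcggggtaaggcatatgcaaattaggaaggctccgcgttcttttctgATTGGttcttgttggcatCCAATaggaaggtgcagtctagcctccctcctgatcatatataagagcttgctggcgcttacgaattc
H4c8: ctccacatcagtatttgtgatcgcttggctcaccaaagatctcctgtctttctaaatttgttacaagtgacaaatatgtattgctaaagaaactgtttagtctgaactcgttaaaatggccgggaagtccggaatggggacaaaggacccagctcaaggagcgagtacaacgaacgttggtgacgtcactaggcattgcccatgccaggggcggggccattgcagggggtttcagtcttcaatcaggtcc
The windows are chr13:23738557-23738806 (plus strand), chr11:58954435-58954684 (plus strand) and chr13:23530794-23531043 (plus strand). The H1f2 window held 1 CCAAT, the H2aw window 2 in opposite orientations, and the H4c8 window none; TATAAA was in none of them. Of 32851 windows of the same length, 33.8% held CCAAT and 12.4% held TATAAA. Only these exact strings were searched, so variants of either string were not counted. These matches are descriptions of the letters only.

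Replacement variants, made outside S phase from ordinary polyadenylated mRNAs, differed among themselves. Macroh2a2, a large H2A variant of silent chromatin, rose from 3.38 ± 0.243 to 8.15 ± 0.44 CPM (mean ± SD, n = 3; log2 fold change 1.27 ± 0.16), while Macroh2a1 had 0.05 ± 0.08 (adjusted p = 0.62). H3f3b, which encodes H3.3, rose by 0.93 ± 0.22, while H3f3a, another gene for the same protein, had 0.15 ± 0.08 (adjusted p = 0.15). H1f0, the linker histone of resting cells, rose by 0.52 ± 0.11. The single histone gene that fell was H2az2 (log2 fold change -0.44 ± 0.09, adjusted p = 0.0047). H2ax, whose phosphorylated product marks double-strand breaks, rose by 0.72 ± 0.18, with an adjusted p of 0.0539 without V replicate 1.

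**Figure D1:**
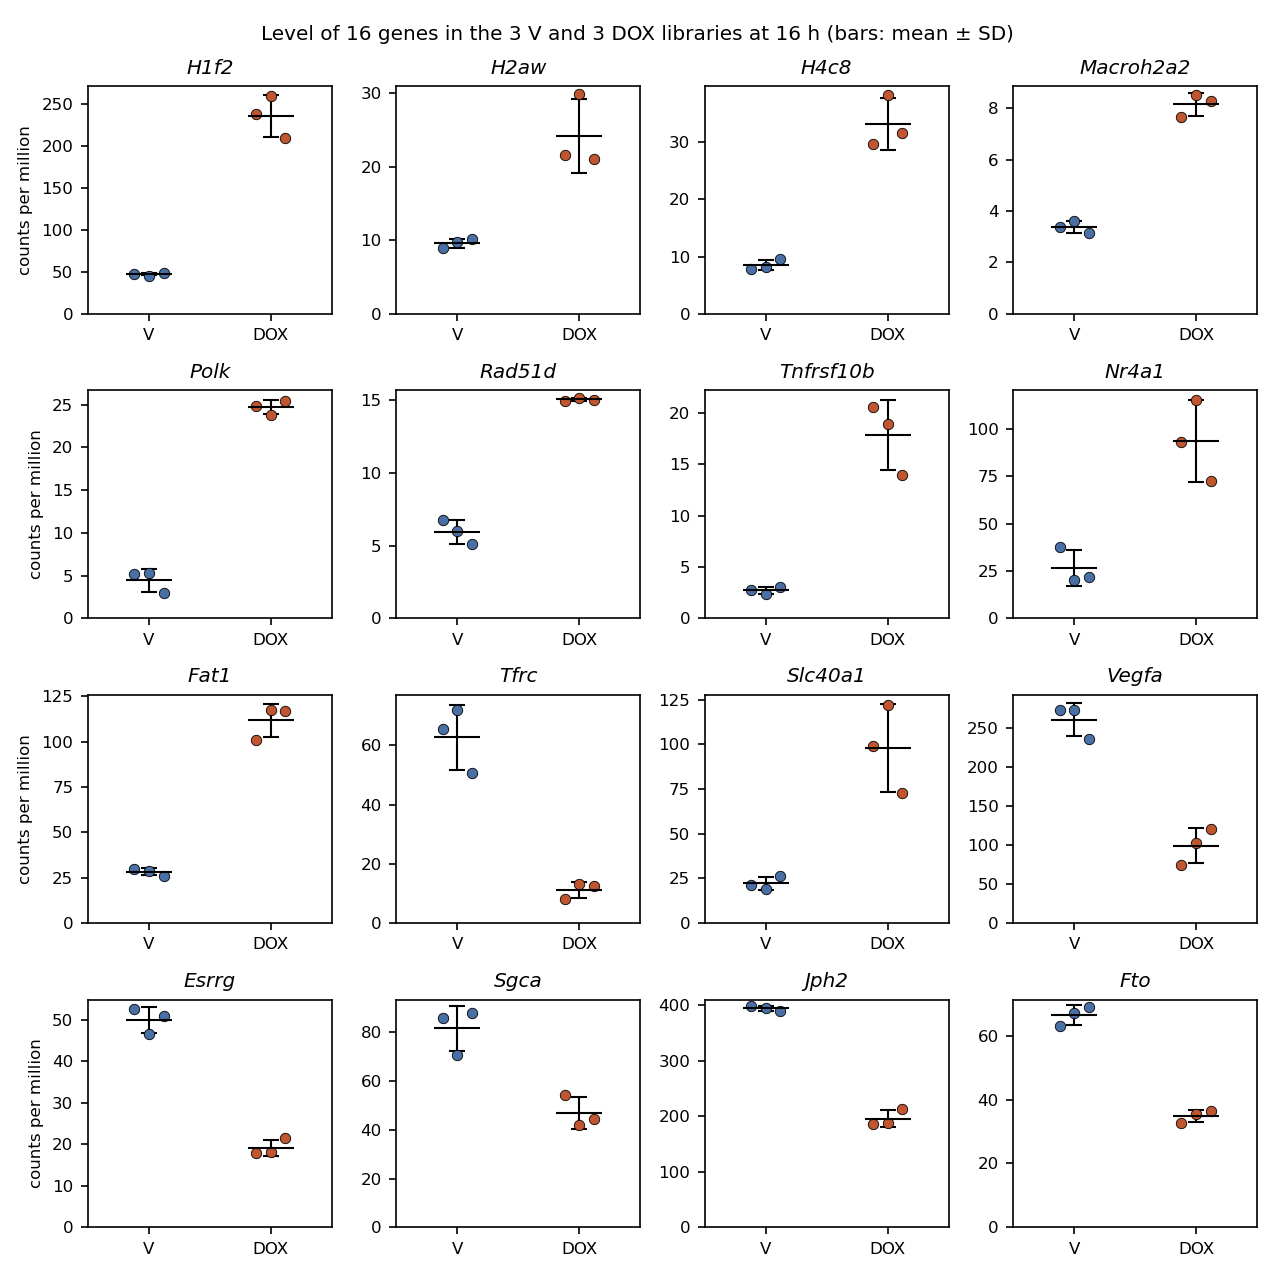
Level (CPM, linear axis from 0) of 16 genes in the 3 V libraries (blue) and 3 DOX libraries (orange) at 16 h; points are libraries, the long bar is the mean and whiskers are the SD. In each panel the 2 groups do not overlap, as for 56.4% of all genes. H1f2 stands at 47.5 against 236 CPM and Tfrc at 62.7 against 11.2 CPM.

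Enzymes that write and erase histone marks were called at shares near those of all genes, 18% risen and 14% fallen among methyltransferases and demethylases and 17.6% each way among deacetylases and sirtuins, beside 15.6% and 16.6%. Among methyltransferases and demethylases 9 of 50 rose and 7 fell (median 0.10), and the count of falls was 4 without V replicate 3 and 3 without V replicate 1. Smyd2, a muscle-expressed lysine methyltransferase, fell by 0.92 ± 0.12 on the log2 scale, Prmt1, the main arginine methyltransferase, had -0.75 ± 0.12, and Ehmt1, which methylates H3 lysine 9, had 0.52 ± 0.11. In the Polycomb list 5 of 25 rose and 1 fell (median 0.19). The list holds genes of the repressive complexes that modify H3 and H2A, and also the H3 lysine 27 demethylase Kdm6b, which is not part of them. Kdm6b was up by 0.54 ± 0.13 and the histone chaperone Rbbp4 had -0.48 ± 0.10. Risen members of the list numbered 3 without DOX replicate 3, 2 without DOX replicate 2 or V replicate 2 and 1 without V replicate 1 or V replicate 3. Among deacetylases and sirtuins 3 of 17 rose and 3 fell (median 0.06); the mitochondrial sirtuins Sirt3 and Sirt5 had -0.71 ± 0.14 and -0.78 ± 0.16, against 0.78 ± 0.16 for Hdac10. SWI/SNF remodellers, which slide nucleosomes, had 3 risen and 6 fallen of 23, and the count of falls was 3 without DOX replicate 2, DOX replicate 3, V replicate 1 or V replicate 2. Within that complex Bcl7a had 0.87 ± 0.20 and its relative Bcl7b had -0.72 ± 0.16, opposite signs. Of 12 measured DNA methylation genes, 2 rose and 3 fell, with a median of 0.06.

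Damage signalling rose in part and repair was mixed. In the checkpoint list 7 of 20 rose and 1 fell (median 0.13), a share of 35%. Atm, the kinase that signals double-strand breaks, stood at 9.74, 10.1 and 12.5 CPM in the V libraries and 13.9, 17.4 and 17.2 CPM in the DOX libraries (log2 fold change 0.59 ± 0.13). Usp28, a deubiquitinase of the damage response, moved the other way, with 116, 104 and 118 CPM in the V libraries and 22.4, 26.9 and 31.2 CPM in the DOX libraries (log2 fold change -2.06 ± 0.44, adjusted p = 0.0071). The count of risen members was 4 without DOX replicate 1, DOX replicate 2 or V replicate 2, 3 without V replicate 3 and 2 without V replicate 1.

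Polk, the translesion polymerase kappa (chromosome 13, 96480690 to 96542579), was among the 15 largest rises of all genes. It stood at 5.21, 5.26 and 2.93 CPM in the V libraries and 24.8, 23.8 and 25.5 CPM in the DOX libraries (log2 fold change 2.46 ± 0.48, adjusted p = 0.0052). Rad51d, a gene of homologous recombination, had 6.75, 5.98 and 5.13 CPM in the V libraries and 15, 15.2 and 15 CPM in the DOX libraries (log2 fold change 1.33 ± 0.22, adjusted p = 0.0029), with DOX libraries within a narrow range. Rad50, of the MRE11 complex that holds broken ends, rose by 0.95 ± 0.15. Over the whole homologous recombination and Fanconi list, 12 of 31 genes were in the table, of which 2 rose and 1 fell (median 0.24). End joining had 1 risen and 2 fallen of 12.

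In base and nucleotide excision repair 3 of 26 rose and 5 fell (median 0.04), and the count of falls was 3 without V replicate 1, V replicate 2 or V replicate 3 and 2 without DOX replicate 1. The lesion sensor Xpc rose by 0.70 ± 0.16 and the TFIIH helicase Ercc3 by 0.64 ± 0.13, while Rad23b, which stabilises XPC, had -0.63 ± 0.11. Replication genes had 6 of 23 risen and 1 fallen, and the count of risen members was 3 without DOX replicate 1 or DOX replicate 3 and 2 without V replicate 1 or V replicate 3. The sliding clamp Pcna had 22.3, 22 and 23.5 CPM in the V libraries and 38.7, 36.5 and 33.2 CPM in the DOX libraries (log2 fold change 0.68 ± 0.14). Of 27 mitosis genes only Cenpa and Cenpf were in the table. The centromeric histone Cenpa fell, with a log2 fold change of -1.63 ± 0.33, and Cenpf had -2.19 ± 0.61, with an adjusted p of 0.0559 without DOX replicate 1, 0.0575 without DOX replicate 2, 0.0621 without DOX replicate 3 and 0.0608 without V replicate 1.

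Death receptors and the caspase cascade held a high share of risen genes, 40% against 15.6% of all genes. In this list 12 of 30 rose and 5 fell (median 0.22), and the count of risen members was 8 to 11 with any 1 of the 6 libraries left out. Many of its members are known p53 targets. Tnfrsf10b, the mouse TRAIL receptor, stood at 2.8, 2.36 and 3.04 CPM in the V libraries and 20.5, 18.9 and 14 CPM in the DOX libraries (log2 fold change 2.70 ± 0.50, adjusted p = 0.0043). Apaf1, the scaffold of the apoptosome, rose by 1.46 ± 0.26. Aen, a nuclease induced in apoptosis, and Ei24, a membrane protein of the endoplasmic reticulum, rose by 1.97 ± 0.42 and 1.54 ± 0.27. Xaf1, an antagonist of XIAP, rose by 1.33 ± 0.22. Against these, Cradd, the adaptor that brings caspase-2 to its activating complex, fell from 7.65 ± 0.6 to 3.29 ± 0.408 CPM (mean ± SD; log2 fold change -1.21 ± 0.18), and the mitochondrial nuclease Endog had -0.97 ± 0.18. Tnfrsf12a, the receptor for TWEAK, had 29.4, 25.8 and 30.3 CPM in the V libraries and 7.38, 7.71 and 12.4 CPM in the DOX libraries (log2 fold change -1.63 ± 0.39, adjusted p = 0.011) and went against the rise of Tnfrsf10b.

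RNA synthesis machinery had members that rose and members that fell. Of 13 RNA polymerase II subunits 1 rose (7.7%) and 4 fell (30.8%), beside 15.6% and 16.6% of all genes, with a median of -0.07. Among the falls, Polr2e, a subunit shared by the nuclear polymerases, had -0.64 ± 0.15. The subunit that rose is not named here. Of 33 elongation factors 7 rose and 2 fell, and the count of risen members was 4 without DOX replicate 1, 3 without DOX replicate 2, V replicate 1 or V replicate 3 and 2 without V replicate 2. Among them were the P-TEFb cyclin Ccnt1 at 0.49 ± 0.11 and the histone chaperone Supt6 at 0.52 ± 0.12. Nelfcd, of the pausing complex NELF, had -0.65 ± 0.13, and Tcea3, the muscle form of the factor that rescues stalled polymerase, had 87.8, 79.8 and 81.6 CPM in the V libraries and 39.4, 40.6 and 39.7 CPM in the DOX libraries (log2 fold change -1.06 ± 0.19). In the Mediator complex 6 of 31 rose and 3 fell (median 0.16), and the count of risen members was 3 without DOX replicate 1, DOX replicate 2, V replicate 1 or V replicate 3. The kinase Cdk19 was up from 23.1 ± 2.24 to 48.5 ± 3.81 CPM (mean ± SD; log2 fold change 1.07 ± 0.22), while the tail subunits Med16 and Med24 had -0.41 ± 0.10 and -0.52 ± 0.11. Ribosome assembly and RNA polymerase I factors had 13 of 74 risen and 5 fallen (median 0.15), and the count of risen members was 8 without DOX replicate 1 and 5 without DOX replicate 2, V replicate 2 or V replicate 3. The list held Utp20, of the small-subunit processome, at 0.91 ± 0.17 and Taf1b, of the polymerase I selectivity factor, at -0.81 ± 0.16. SR and hnRNP splicing factors had 10 of 56 risen and 12 fallen, and the count of risen members was 6 without V replicate 3, 5 without DOX replicate 3 or V replicate 1 and 4 without V replicate 2. Hnrnpu, a nuclear scaffold protein, had 0.47 ± 0.10 and Srsf2 had -0.63 ± 0.11.

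Genes of deadenylation and mRNA decay rose more often than they fell. In this list 11 of 43 rose and 1 fell (median 0.22), 25.6% and 2.3% beside 15.6% and 16.6% of all genes. With any 1 of the 6 libraries left out, 855 to 1137 of all 10393 genes and 3 to 7 members of this list rose. Its largest change was Btg2, an antiproliferative protein that activates deadenylases and a p53 target, with 38.3, 32.9 and 47 CPM in the V libraries and 199.6, 149.6 and 102 CPM in the DOX libraries (log2 fold change 1.93 ± 0.35, adjusted p = 0.0038). Nonsense-mediated decay had 2 of 18 risen (11.1%) and none fallen, with Smg5 at 0.54 ± 0.12. Of 17 m6A genes 3 rose and 3 fell, 17.6% each way beside 15.6% and 16.6% of all genes. Among the falls, Fto, a demethylase, and Mettl16, a methyltransferase, had -0.93 ± 0.13 and -1.07 ± 0.25. The members that rose are not named here. MicroRNA processing had 5 of 17 risen and 2 fallen, and the count of risen members was 3 without V replicate 3 and 2 without DOX replicate 2, DOX replicate 3, V replicate 1 or V replicate 2, with the helicase Ddx5 at 0.40 ± 0.09 and the Dicer partner Tarbp2 at -0.83 ± 0.12. Noncoding and snoRNA host RNAs had 8 of 24 risen and 1 fallen, and the count of risen members was 2 to 5 with any 1 of the 6 libraries left out. Airn, the antisense RNA of the imprinted Igf2r locus, rose by 0.91 ± 0.17 and the snoRNA host Zfas1 by 0.98 ± 0.21; the kit's strand setting is not given in the sources used here, so reads of Airn and of Igf2r cannot be told apart where they overlap. Mhrt, which overlaps Myh7 in antisense and carries the same limit, had -1.62 ± 0.41.

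The nuclear envelope changed in a few members. Among lamina and LINC complex genes 7 of 23 rose and 1 fell (median 0.16), and the count of risen members was 3 without DOX replicate 2 and 2 without V replicate 3. Lmnb1, lamin B1, had 3.57, 2.9 and 4.08 CPM in the V libraries and 6.56, 6.66 and 5.26 CPM in the DOX libraries (log2 fold change 0.81 ± 0.20). The inner membrane protein Tmem43, whose mutation causes an arrhythmogenic cardiomyopathy, had 0.47 ± 0.09, and Tor1aip1, the torsin activator LAP1, had -0.56 ± 0.13. Of 26 pore genes 4 rose (15.4%) and 3 fell (11.5%), beside 15.6% and 16.6% of all genes, and only risen members are named here. Aaas, the nucleoporin aladin, stood at 6.27, 6.98 and 8.06 CPM in the V libraries and 24.4, 25.9 and 26.4 CPM in the DOX libraries (log2 fold change 1.85 ± 0.30, adjusted p = 0.0031), the largest change of the pore list, and Nup93 rose by 0.96 ± 0.17. Among 41 translation initiation factors 5 rose (12.2%) and 4 fell (9.8%), both below the shares of all genes. The count of risen members was 2 to 3 with any 1 of the 6 libraries left out. Among the rises, Eif1a, a scanning factor, had 1.03 ± 0.23 and the helicase Eif4a2 had 0.67 ± 0.14. The members that fell are not named here.

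**Figure D2:**
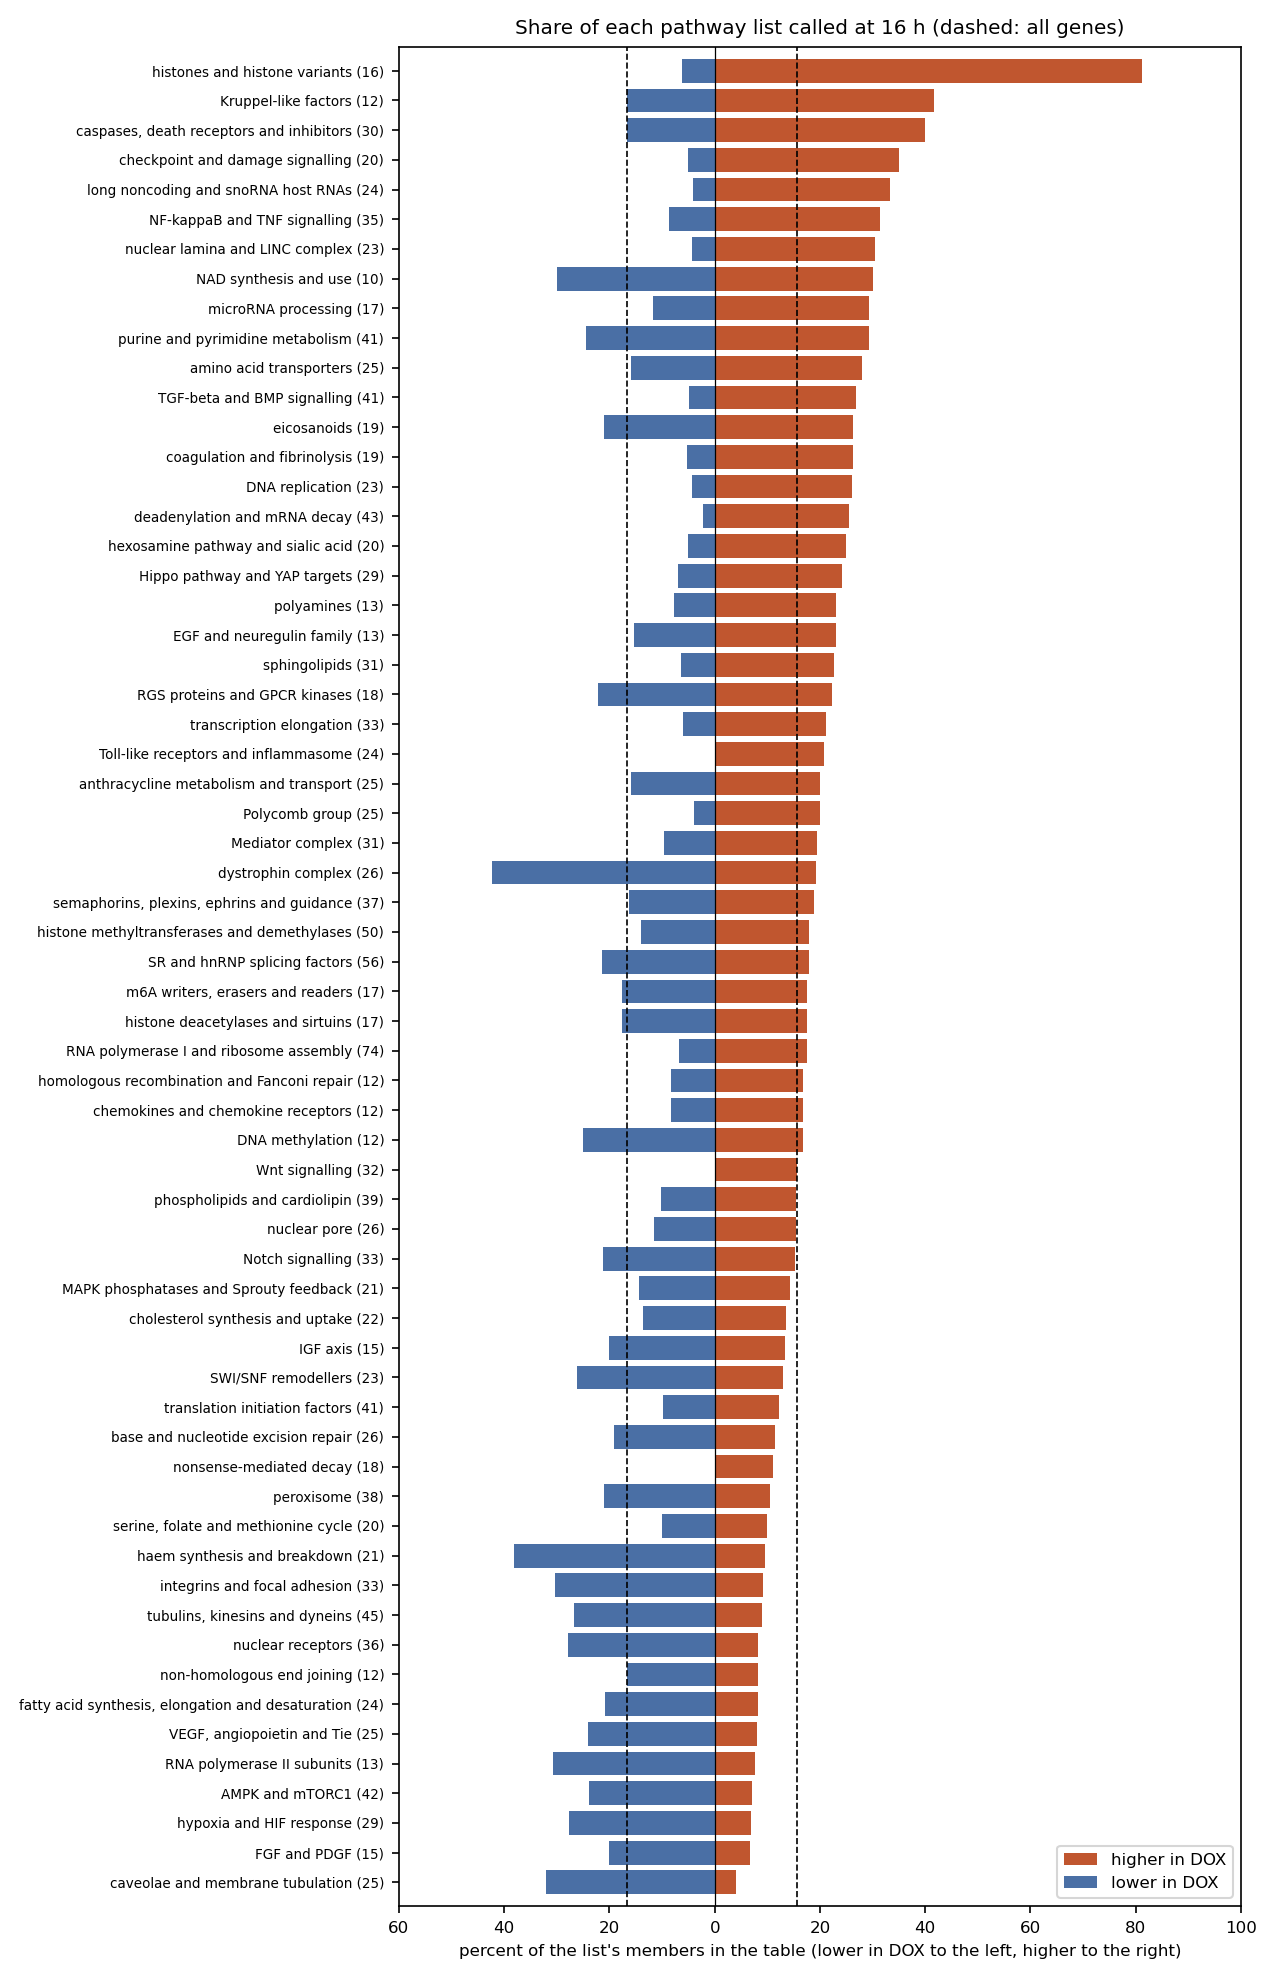
Percent of each pathway list's members in the table that were called higher (orange, right) or lower (blue, left) in DOX than in V at 16 h, for the lists with at least 10 members; numbers in brackets are members in the table and dashed lines are the shares over all genes, 15.6% and 16.6%. Histones stand far to the right at 81.2%, and the dystrophin complex reaches furthest left at 42.3%.

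NF-kappaB signalling and Kruppel-like factors had larger shares of risen members than all genes. In the NF-kappaB and TNF list 11 of 35 rose and 3 fell (median 0.25), a share of 31.4%. Bcl3, a nuclear IkappaB protein that binds p50, had 2.89, 2.72 and 2.41 CPM in the V libraries and 13.8, 7.01 and 6.9 CPM in the DOX libraries (log2 fold change 1.78 ± 0.39), and Nfkbiz, another nuclear IkappaB protein, rose by 1.26 ± 0.31. Tnfrsf1b, TNF receptor 2, rose by 0.66 ± 0.14 and the kinase Chuk by 0.41 ± 0.10, while Tnfaip8 had -1.01 ± 0.23. The count of risen members was 7 without V replicate 2 and 6 without DOX replicate 1 or V replicate 1. Summed neutrophil markers were higher in the same DOX libraries. Of 12 Kruppel-like factors, zinc finger regulators of vessel and muscle, 5 rose and 2 fell; the count of risen members was 3 without DOX replicate 1, DOX replicate 2, DOX replicate 3, V replicate 1 or V replicate 2. Klf4 had 56.3, 52.1 and 47.6 CPM in the V libraries and 121, 98.7 and 100.3 CPM in the DOX libraries (log2 fold change 1.03 ± 0.26) and Klf6 rose by 0.80 ± 0.18. Klf12 and Klf9, the latter a clock-coupled and glucocorticoid-responsive factor, had -1.12 ± 0.26 and -0.61 ± 0.15.

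Innate receptors and chemokines gave a small number of large rises. Of 24 Toll-like receptor and inflammasome genes 5 rose and none fell (median 0.36). The risen share was 20.8%, beside 15.6% of all genes. The count of risen members was 3 without V replicate 2 and 2 without DOX replicate 1, V replicate 1 or V replicate 3. Of all 10393 genes, 855 rose without V replicate 1. Tlr2, the receptor for bacterial lipoproteins, rose from 3.13 ± 0.209 to 6.41 ± 1.44 CPM (mean ± SD; log2 fold change 1.03 ± 0.24). Il1b had 0.771, 1.36 and 2.62 CPM in the V libraries and 10.8, 8.76 and 5.01 CPM in the DOX libraries (log2 fold change 2.38 ± 0.63), with an adjusted p of 0.052 without DOX replicate 1, 0.0641 without V replicate 1 and 0.0535 without V replicate 2. Of 12 chemokine genes 2 rose (16.7%) and 1 fell (8.3%). Ccl6 and Ccl9, both made by myeloid cells, rose by 1.83 ± 0.44 and 1.89 ± 0.43. Itgam, the myeloid integrin CD11b, rose by 1.37 ± 0.29. These 5 genes are expressed in neutrophils and monocytes; the neutrophil markers were higher in the same DOX libraries, and their part in these values was not tested.

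In growth factor pathways single genes changed by large amounts. The Hippo list had 7 of 29 risen (24.1%) and 2 fallen (6.9%), beside 15.6% and 16.6% of all genes. The list's count of risen members was 4 without DOX replicate 3 or V replicate 3. Its largest rise was Fat1, a giant protocadherin upstream of the Hippo kinases, with 29.8, 28.7 and 26 CPM in the V libraries and 101, 117 and 117 CPM in the DOX libraries (log2 fold change 1.99 ± 0.31, adjusted p = 0.0027). The Hippo kinase Stk4 rose by 0.58 ± 0.11 and Nf2, merlin, had -0.46 ± 0.09. For TGF-beta and BMP signalling 11 of 41 rose (26.8%) and 2 fell (4.9%), with a median of 0.21. The count of risen members was 3 to 7 with any 1 of the 6 libraries left out. The ligand Tgfb2 had 8.68, 8.52 and 7.22 CPM in the V libraries and 19.6, 16.5 and 19 CPM in the DOX libraries (log2 fold change 1.17 ± 0.22) and the effector Smad3 rose by 0.69 ± 0.16, while the BMP co-receptor of iron sensing Hjv had -0.45 ± 0.11. Of 32 Wnt genes 5 rose, 15.6% and so the same share as over all genes, and none fell (all genes, 16.6%). The count of risen members was 3 without DOX replicate 2 and 2 without V replicate 1. Among the rises, the receptors Fzd3 and Fzd5 had 1.38 ± 0.30 and 1.46 ± 0.28. Notch signalling had 5 of 33 risen (15.2%) and 7 fallen (21.2%), near the shares of all genes. There the count of risen members was 3 without V replicate 1 or V replicate 3, and the count of falls was 4 without DOX replicate 1 or V replicate 1, 3 without V replicate 2, 2 without DOX replicate 2 and 1 without V replicate 3. Rbpj, the pathway's DNA-binding factor, had 0.42 ± 0.08 and the gamma-secretase subunit Aph1a -0.48 ± 0.09.

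Vegfa, the main angiogenic factor of heart muscle, fell from 260.1 ± 21.3 to 98.9 ± 22.8 CPM (mean ± SD; log2 fold change -1.39 ± 0.32, adjusted p = 0.0095), and its receptor Kdr had 139, 139.5 and 129.7 CPM in the V libraries and 71.3, 77.3 and 77.1 CPM in the DOX libraries (log2 fold change -0.85 ± 0.20). In the VEGF, angiopoietin and Tie list 2 of 25 rose and 6 fell (median -0.14), and the count of falls was 3 without V replicate 1. Apold1, an early response gene of endothelium, went against them with 13.8, 13.6 and 17.6 CPM in the V libraries and 118, 80.9 and 51.1 CPM in the DOX libraries (log2 fold change 2.47 ± 0.51, adjusted p = 0.0065). Hypoxia-response genes had 2 of 29 risen and 8 fallen, a count of falls that was 3 to 5 with any 1 of the 6 libraries left out. Of the oxygen sensors, Egln1 had -0.56 ± 0.11 and Egln3 fell from 60 ± 5.04 to 29.9 ± 3.69 CPM (mean ± SD; adjusted p = 0.0021).

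In the EGF and neuregulin family, Erbb2, the receptor whose blockade adds to anthracycline cardiotoxicity in patients, rose from 5.88 ± 0.111 to 10.4 ± 1.15 CPM (mean ± SD; log2 fold change 0.83 ± 0.21), and 3 of 13 members rose and 2 fell. Its heart partner Erbb4 had 15.2, 16.6 and 15.7 CPM in the V libraries and 5.65, 4.73 and 5.83 CPM in the DOX libraries (log2 fold change -1.55 ± 0.49, adjusted p = 0.033); the adjusted p was 0.0689 to 0.0909 with any 1 of the 6 libraries left out. Without the DOXH libraries, a choice made after seeing the data, the adjusted p of Erbb4 was 0.000709. Of 15 FGF and PDGF genes 1 rose and 3 fell: Fgf13, which binds sodium channels inside the cell, had 51, 43.8 and 53.2 CPM in the V libraries and 13.8, 13.6 and 12.7 CPM in the DOX libraries (log2 fold change -1.88 ± 0.31, adjusted p = 0.0032), Fgf1 had -0.53 ± 0.11 and Fgf2 0.60 ± 0.15. The IGF axis had 2 of 15 risen and 3 fallen, with Igfbp4 at 0.72 ± 0.16 and the IGF-binding protein protease Htra1 at -0.61 ± 0.13. MAPK feedback genes had 3 of 21 risen and 3 fallen; Dusp5 and Dusp1, which switch off ERK and stress kinases, had 1.17 ± 0.28 and 0.78 ± 0.14, and Dusp7 had -1.20 ± 0.26. RGS proteins and receptor kinases had 4 of 18 each way. Grk5, a kinase of beta-adrenergic receptors in heart, had 34.4, 33.5 and 37.8 CPM in the V libraries and 74.1, 66.1 and 61 CPM in the DOX libraries (log2 fold change 0.93 ± 0.20), and Gpsm1, a regulator of Galpha subunits, had 126, 136 and 129 CPM in the V libraries and 18.6, 33 and 36.3 CPM in the DOX libraries (log2 fold change -2.15 ± 0.48, adjusted p = 0.0083).

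Nuclear receptors fell more often than all genes did: 3 of 36 rose and 10 fell (median -0.13), 27.8% fallen. The count of falls was 6 without DOX replicate 1 or V replicate 1. Esrrg, the estrogen-related receptor that drives oxidative genes in heart (chromosome 1, 187608791 to 188214885), had 52.5, 46.5 and 50.9 CPM in the V libraries and 18, 18.1 and 21.4 CPM in the DOX libraries (log2 fold change -1.38 ± 0.21, adjusted p = 0.0025), and Esrrb had -1.04 ± 0.16. Nr4a1, an immediate early receptor, rose against the list with 37.4, 20.5 and 21.7 CPM in the V libraries and 93, 115 and 72.2 CPM in the DOX libraries (log2 fold change 1.82 ± 0.34, adjusted p = 0.0045). AMPK and mTORC1 regulators had 3 of 42 risen and 10 fallen (median -0.23), and the count of falls was 5 without DOX replicate 2, DOX replicate 3 or V replicate 1 and 4 without V replicate 3. The Ragulator subunit Lamtor1 and the AMPK gamma subunit Prkag1 had -0.63 ± 0.12 and -0.51 ± 0.10. Cardiomyocyte markers fell in the same libraries, and their part in these values was not tested.

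Genes of haem synthesis and breakdown fell more often than they rose, and so did erythroid markers. Of 5 erythroid markers 2 fell and none rose (median -0.65), and their summed level was 1430.0 to 2811 CPM in V and 993 to 1637 CPM in DOX, ranges that overlap. At 72 h all 5 fell, with a median of -6.56. Their part in the haem values was not tested. Alas1, the rate-limiting enzyme of haem synthesis outside red cells, had 176, 172 and 165 CPM in the V libraries and 36.3, 51.9 and 61.1 CPM in the DOX libraries (log2 fold change -1.78 ± 0.36, adjusted p = 0.0058). In the haem list 2 of 21 rose and 8 fell (median -0.11), 38.1% fallen, and the count of falls was 5 without DOX replicate 1 and 4 without DOX replicate 3, V replicate 1, V replicate 2 or V replicate 3. The carrier Slc25a39, which takes glutathione into mitochondria, and the constitutive haem oxygenase Hmox2 had -0.60 ± 0.13 and -0.71 ± 0.13. Hmox1, the inducible oxygenase, had 6.46, 9.07 and 10.2 CPM in the V libraries and 43.4, 15.1 and 10.9 CPM in the DOX libraries, with a log2 fold change of 1.43 ± 0.79 (adjusted p = 0.18).

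Tfrc and Slc40a1, which carry iron into and out of cells, changed in opposite directions. Tfrc, the transferrin receptor (chromosome 16, 32608920 to 32632794), stood at 65.5, 72.1 and 50.6 CPM in the V libraries and 8.11, 13.1 and 12.3 CPM in the DOX libraries (log2 fold change -2.48 ± 0.42, adjusted p = 0.0032). Slc40a1, ferroportin, the exporter of iron, had 21, 19.2 and 26.4 CPM in the V libraries and 99, 122 and 73 CPM in the DOX libraries (log2 fold change 2.14 ± 0.38, adjusted p = 0.0037). The groups overlapped for neither gene, as was so for 5857 of all 10393 genes (56.4%). Slc40a1 is also expressed by macrophages, of whose 7 markers 1 rose and 1 fell. Tfrc is high in red cell precursors, and 2 of 5 erythroid markers fell in the same libraries (median -0.65); their part was not tested.

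Nucleotide metabolism changed in many members and in both directions: of 41 purine and pyrimidine genes 12 rose and 10 fell. There the count of risen members was 6 without V replicate 1, and the count of falls was 6 without DOX replicate 1 and 5 without V replicate 1. Adk, adenosine kinase, had 124, 123 and 123 CPM in the V libraries and 52.9, 48.5 and 55.4 CPM in the DOX libraries (log2 fold change -1.24 ± 0.19, adjusted p = 0.0027), and the muscle adenylosuccinate synthase Adssl1 had -0.58 ± 0.10. The salvage kinases Dck and Tk2, which phosphorylate deoxynucleosides, rose by 0.88 ± 0.18 and 0.99 ± 0.20. Cmpk2, a mitochondrial kinase and interferon-stimulated gene, rose by 1.24 ± 0.19. Dhodh, the mitochondrial step of pyrimidine synthesis, had -0.91 ± 0.19.

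Amino acid transporters included some of the larger changes of metabolism, with 7 of 25 risen and 4 fallen, and the count of risen members was 4 without V replicate 1 or V replicate 3 and 3 without DOX replicate 1. Slc43a2, a carrier of large neutral amino acids, had 12.9, 12.1 and 17.2 CPM in the V libraries and 61.7, 51.4 and 42.1 CPM in the DOX libraries (log2 fold change 1.88 ± 0.37, adjusted p = 0.0052). Slc38a3, the glutamine carrier SNAT3, had 84.8, 81.6 and 70.1 CPM in the V libraries and 17.3, 18.8 and 21.8 CPM in the DOX libraries (log2 fold change -2.03 ± 0.36, adjusted p = 0.0037). The lysosomal carrier Slc36a1 rose by 0.53 ± 0.13 and the taurine carrier Slc6a6 had -0.49 ± 0.12. In the polyamine list 3 of 13 rose and 1 fell: Odc1, ornithine decarboxylase, rose from 51.5 ± 3.13 to 108 ± 10.5 CPM (mean ± SD; log2 fold change 1.06 ± 0.25), and Oaz1, the antizyme that degrades it, had -0.40 ± 0.07. NAD genes had 3 of 10 each way, with the aldehyde oxidase Aox1 at 1.23 ± 0.24 and the mitochondrial synthase Nmnat3 at -1.62 ± 0.30. The serine, folate and methionine cycle had 2 of 20 each way, methionine synthase Mtr at -0.61 ± 0.15. Hexosamine genes had 5 of 20 risen and 1 fallen, with Gne, the first enzyme of sialic acid synthesis, at 0.83 ± 0.14 and the O-GlcNAc hydrolase Oga at 0.80 ± 0.13.

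Among lipid genes, sphingolipid metabolism had 7 of 31 risen and 2 fallen, and the count of risen members was 4 without DOX replicate 1, V replicate 2 or V replicate 3 and 3 without V replicate 1. Cers6, a ceramide synthase, had 4.24, 4.99 and 3.35 CPM in the V libraries and 11.1, 10.2 and 9.78 CPM in the DOX libraries (log2 fold change 1.30 ± 0.20, adjusted p = 0.0027), while acid sphingomyelinase Smpd1 and ceramide kinase Cerk had -0.90 ± 0.18 and -0.66 ± 0.14. Phospholipid genes had 6 of 39 risen and 4 fallen, and the count of risen members was 3 without V replicate 1, with the acyltransferase Agpat2 at 22.3, 26.2 and 29.6 CPM in the V libraries and 5.29, 8.76 and 10.8 CPM in the DOX libraries (log2 fold change -1.65 ± 0.38). Fatty acid synthesis had 2 of 24 risen and 5 fallen, and the count of falls was 3 without V replicate 3. The desaturase Scd4, expressed in heart, had 3.09, 4.35 and 5.23 CPM in the V libraries and 16.2, 21.1 and 15.9 CPM in the DOX libraries (log2 fold change 2.07 ± 0.47), and Hacd1, the muscle dehydratase of chain elongation, had -1.30 ± 0.19. Cholesterol synthesis had 3 of 22 each way, the squalene synthase Fdft1 at -0.58 ± 0.13. Peroxisome genes had 4 of 38 risen and 8 fallen, the import receptor Pex19 at -0.53 ± 0.09. Eicosanoid genes had 5 of 19 risen and 4 fallen, and the count of risen members was 3 without DOX replicate 3, 2 without DOX replicate 2 or V replicate 3 and 1 without V replicate 1. Ptger4, the prostaglandin E2 receptor EP4, had 1.74, 2.36 and 2.09 CPM in the V libraries and 12.8, 8.94 and 8.05 CPM in the DOX libraries (log2 fold change 2.26 ± 0.33, adjusted p = 0.0024).

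The dystrophin complex, which ties the muscle cell's actin to the matrix, fell more than any other list of at least 10 members by share: 5 of 26 rose and 11 fell (median -0.19), 42.3% fallen. The count of falls was 9 to 10 with any 1 of the 6 libraries left out, and the count of risen members was 1 to 3 with any 1 of the 6 libraries left out. Members of the sarcoglycans, the membrane subcomplex lost in limb-girdle dystrophies, were among the falls. Sgca had 85.6, 70.7 and 87.8 CPM in the V libraries and 54.1, 41.8 and 44.5 CPM in the DOX libraries (log2 fold change -0.80 ± 0.16, adjusted p = 0.0058), and Sgcb had -0.83 ± 0.13. Dtna, alpha-dystrobrevin, had -0.74 ± 0.13. Cardiomyocyte markers had a median log2 fold change of -0.71 in the same libraries, beside a list median of -0.19.

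Genes of membrane tubules and adhesion fell more often than they rose. In the same libraries 7 of 7 cardiomyocyte markers fell (median -0.71), and their part in these counts was not tested. In the highest of 10 equal classes of level, 40.67% of genes fell and 5.67% rose. The part of level in these counts was not tested either. Caveolae and tubulation genes had 1 of 25 risen (4.0%) and 8 fallen (32.0%), beside 15.6% and 16.6% of all genes, with a median of -0.24. The count of falls was 5 without V replicate 1. Jph2, junctophilin-2, which holds tubules to the sarcoplasmic reticulum, had 399, 396 and 390.1 CPM in the V libraries and 186, 187 and 213 CPM in the DOX libraries (log2 fold change -1.02 ± 0.14, adjusted p = 0.0021), and Dysf, the membrane repair protein dysferlin, had -0.99 ± 0.20. Integrins and focal adhesion genes had 3 of 33 risen (9.1%) and 10 fallen (30.3%), a count of falls that was 6 without V replicate 3. The adaptor Parvb had -0.77 ± 0.10 and Itgb1bp2, melusin, a muscle integrin partner, -0.64 ± 0.13, while the receptor chain Itgav rose by 0.62 ± 0.10. Of 45 tubulin and motor genes 4 rose (8.9%) and 12 fell (26.7%). The alpha-tubulins Tuba4a, with 378, 348 and 367 CPM in the V libraries and 39.7, 64.2 and 67 CPM in the DOX libraries (log2 fold change -2.68 ± 0.60, adjusted p = 0.0097), and Tuba8, with -1.52 ± 0.31, fell while Tubb4b rose by 0.69 ± 0.16.

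Guidance genes had 7 of 37 risen and 6 fallen. Plxna1 had 27.8, 31.1 and 26.2 CPM in the V libraries and 61.2, 71.3 and 74.9 CPM in the DOX libraries (log2 fold change 1.29 ± 0.23, adjusted p = 0.0037) and the endothelial receptor Plxnd1 had 99.2, 109 and 99.2 CPM in the V libraries and 28.4, 39.3 and 47.6 CPM in the DOX libraries (log2 fold change -1.41 ± 0.33, adjusted p = 0.011), so these plexins had opposite signs. Sema3b had -1.90 ± 0.37 and Sema4c 1.17 ± 0.24. Coagulation and fibrinolysis genes had 5 of 19 risen and 1 fallen, the transglutaminase F13a1 at 0.79 ± 0.10 and the protease inhibitor Serpine2 at 1.07 ± 0.15.

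Genes that act on doxorubicin were called at shares near those of all genes. Of 25 measured, 5 rose and 4 fell, shares of 20% and 16%; the count of risen members was 1 to 3 with any 1 of the 6 libraries left out. Top2b, the drug's target in heart muscle cells, had 74.6, 74.7 and 75.5 CPM in the V libraries and 91, 91.7 and 89.7 CPM in the DOX libraries (log2 fold change 0.28 ± 0.08, adjusted p = 0.028); the adjusted p was 0.0576 to 0.08 with any 1 of the 6 libraries left out. Top1 rose by 0.36 ± 0.08. The carbonyl reductase Cbr1, which makes doxorubicinol, had 0.10 ± 0.10 (adjusted p = 0.47), and the quinone reductase Nqo1 had 0.17 ± 0.15 (adjusted p = 0.38). Of the efflux pumps, Abcb1b, a P-glycoprotein gene, had 6.56, 8.98 and 6.91 CPM in the V libraries and 13.7, 10.9 and 12.5 CPM in the DOX libraries (log2 fold change 0.72 ± 0.20, adjusted p = 0.02) and an adjusted p of 0.0648 without DOX replicate 1, 0.0767 without V replicate 1 and 0.0685 without V replicate 3, while Abcb1a, its close relative, had 0.22 ± 0.18 (adjusted p = 0.35); reads could be divided unevenly between them. Abcb4 had -0.80 ± 0.12 and Abcc1 had 0.16 ± 0.08 (adjusted p = 0.13). Slc22a3, an organic cation carrier, had 9.16, 7.16 and 8.27 CPM in the V libraries and 3.37, 3.33 and 4.19 CPM in the DOX libraries, with a log2 fold change of -1.17 ± 0.45 (adjusted p = 0.068). Without the DOXH libraries, a choice made after seeing the data, its adjusted p was 0.0118. The repair enzymes Tdp1 and Tdp2, which free DNA ends from trapped topoisomerases, had 0.52 ± 0.22 (adjusted p = 0.093) and -0.16 ± 0.14 (adjusted p = 0.4). Without the DOXH libraries the adjusted p of Tdp1 was 0.0406. That fit was chosen after seeing the data, and the remaining uncalled genes of this list are not given under it. In the main fit neither Slc22a3 nor Tdp1 was called.

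Several of the largest changes belonged to no list. Klhdc7a, a kelch domain gene (chromosome 4, 139960220 to 139968026), had 4.72, 5.62 and 5.23 CPM in the V libraries and 96.5, 104 and 101 CPM in the DOX libraries (log2 fold change 4.27 ± 0.71, adjusted p = 0.0034). Sec14l5, of a lipid-binding family, had 2.12, 2.45 and 3.04 CPM in the V libraries and 19.4, 17 and 16.7 CPM in the DOX libraries (log2 fold change 2.80 ± 0.52, adjusted p = 0.0044). In both genes each DOX library lay above each V library, and 56.4% of all genes had no overlap in either direction. Mmp3, stromelysin-1, had 3.66, 3.72 and 2.72 CPM in the V libraries and 26.7, 14 and 17.6 CPM in the DOX libraries (log2 fold change 2.52 ± 0.59, adjusted p = 0.01), and the stress protein gene Trp53inp1 rose by 2.55 ± 0.63.

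Among falls, Lrrc15, a leucine-rich repeat membrane protein, had 18, 17.5 and 21.6 CPM in the V libraries and 1.91, 2.02 and 2.14 CPM in the DOX libraries (log2 fold change -3.22 ± 0.78). Cdh4, R-cadherin, fell from 8.2 ± 0.269 to 1.05 ± 0.525 CPM (mean ± SD; log2 fold change -2.93 ± 0.52), Epn3, an endocytic epsin, from 15.8 ± 2.38 to 2.39 ± 1.09 CPM (log2 fold change -2.70 ± 0.45), and Sbk3, a kinase gene, from 7.37 ± 3.73 to 1.07 ± 0.0683 CPM (log2 fold change -2.77 ± 0.40).

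Symbol families, formed from the letters before a number, were ranked by share among the 175 with at least 8 members. The families with the highest shares of risen members were Gbp (5 of 8), Mmp (4 of 8), Pdcd (4 of 9) and Prdm (4 of 9), followed by Ifi, Klf, Utp and Prpf. The PR-domain gene Prdm10 rose by 1.21 ± 0.21, the pre-mRNA factor Prpf39 by 0.98 ± 0.15 and the translation inhibitor Pdcd4 by 0.99 ± 0.20. Those with the highest shares of fallen members were Ndufs (7 of 9), Ndufaf (6 of 8), Abcb (5 of 8) and Mrps (17 of 29), followed by Coq, Ndufb, Timm and Nudt. Mrps genes encode the small subunit of the mitochondrial ribosome; Mrps16 had 28.9, 31.6 and 28.6 CPM in the V libraries and 12.9, 13.1 and 15.9 CPM in the DOX libraries (log2 fold change -1.08 ± 0.16). Of 11 Coq genes, which make or carry ubiquinone, 6 fell, Coq10b at -1.08 ± 0.16 and Coq9 at -0.64 ± 0.08. In the inner membrane translocase, Timm23, the channel, had -0.59 ± 0.08.

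Very long genes fell more often than all genes did. Of 255 genes spanning over 300 kb in GENCODE vM21, 85 fell (33.33%) and 11 rose (4.31%), with a median log2 fold change of -0.24 and quartiles of -0.68 and 0.08. The medians of the 5 shorter classes lay between -0.03 and 0.05. Highly expressed genes also fell more often, 423 of 1040 (40.67%) in the highest of 10 equal classes of level, so each span class was split into 3 equal ranges of level over all genes. The medians over 300 kb were -0.12 in the lowest, -0.24 in the middle and -0.50 in the highest range. These are descriptions over genes, which are not replicates. At 72 h, in other mice, 89 of 175 such genes fell (50.86%) with a median of -0.33, and the shorter classes had medians between -0.11 and 0.15.

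The 85 that fell include genes of heart muscle excitation and structure, and 1 is itself among the 7 cardiomyocyte markers, all of which fell (median -0.71). The part of the markers' fall in these values was not tested. The exchanger Slc8a1, which removes calcium from the muscle cell, had -1.11 ± 0.23, and triadin, Trdn, of the calcium release unit, had -0.80 ± 0.18. Nckap5 (chromosome 1, 125913620 to 126830799) had 8.77, 8.25 and 9.74 CPM in the V libraries and 1.55, 1.58 and 1.64 CPM in the DOX libraries (log2 fold change -2.48 ± 0.25, adjusted p = 0.0021), Cacnb2, a calcium channel subunit of heart, had 81.7, 86.6 and 83.7 CPM in the V libraries and 19.7, 19.2 and 24.7 CPM in the DOX libraries (log2 fold change -1.98 ± 0.25), and Fars2, a mitochondrial tRNA synthetase, had -0.60 ± 0.09. Fto, Esrrg and Adk, described above, also span over 300 kb. Macf1, a cytoskeletal linker, is one of the 11 that rose (log2 fold change 0.44 ± 0.09, adjusted p = 0.0054).

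**Figure D3:**
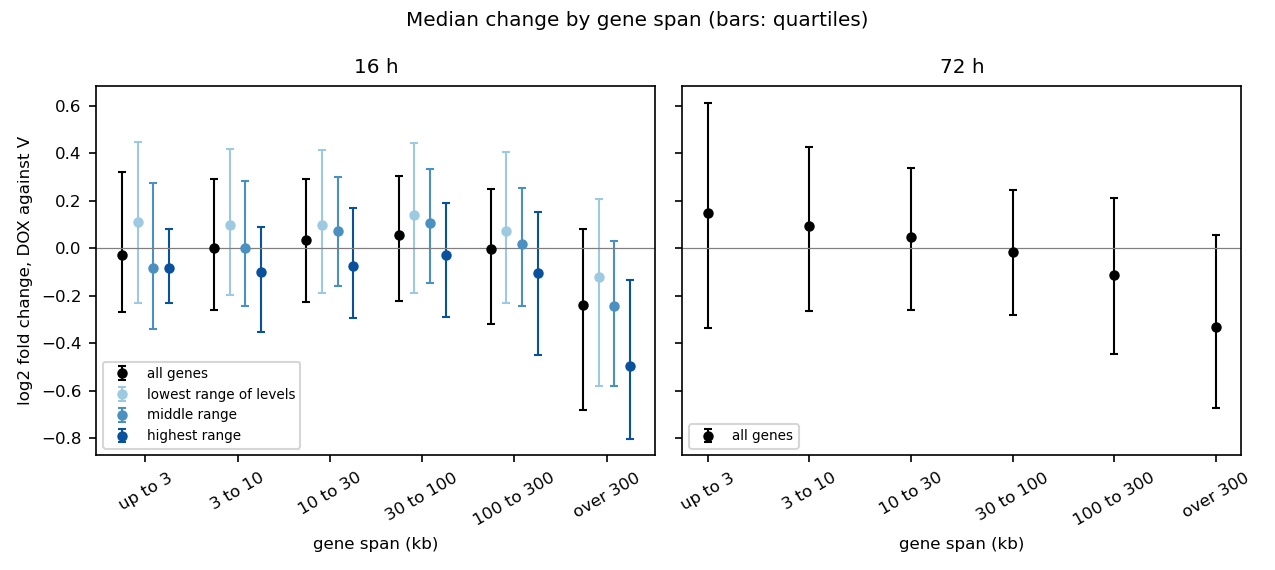
Median log2 fold change (DOX against V, points) with quartiles (bars) by gene span in kb, at 16 h for all genes (black) and for 3 ranges of mean level (blue shades), and at 72 h for all genes. The class over 300 kb lies lowest at both times, at -0.24 and -0.33 over all its genes.

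The 72 h table gave values for many of these genes in other mice, with 3 DOX and 3 V libraries of its own. The number of 1 of those DOX columns is in no label, so it entered as a DOX library without a number; without it 4022 genes were called in place of 4133. Of the table's 7703 genes tested, 26.5% rose and 27.2% fell. Of 1086 genes that rose at 16 h and were in that table, 477 rose again (43.9%) and 81 fell (7.46%). Of 1490 that fell at 16 h, 932 fell again (62.6%) and 88 rose (5.91%). Among 4818 genes called neither way at 16 h the shares were 28.6% risen and 20.7% fallen.

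Individual genes differed in whether they were called again. Mmp3 had a 72 h log2 fold change of 4.32 ± 0.24 and Scd4 of 2.20 ± 0.34, both called again. H1f2 had 1.13 ± 0.08, Alas1 -1.29 ± 0.12, Tfrc -0.93 ± 0.15 and Egln3 -1.49 ± 0.19, each in its 16 h direction and called. Of the 10 listed histone genes measured at 72 h, 4 rose and 1 fell, with a median log2 fold change of 0.1. Fat1 had -0.10 ± 0.12 (adjusted p = 0.5), Nr4a1 0.19 ± 0.28 (adjusted p = 0.6) and Slc40a1 0.17 ± 0.21 (adjusted p = 0.52), all called at 16 h and not at 72 h. Tnfrsf12a, lower at 16 h, had 14.2, 14.8 and 9.25 CPM in the V libraries and 36.6, 44.5 and 63.8 CPM in the DOX libraries at 72 h, a rise (log2 fold change 1.92 ± 0.26). Whether the change differed between the times was not tested for these genes.

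**Figure D4:**
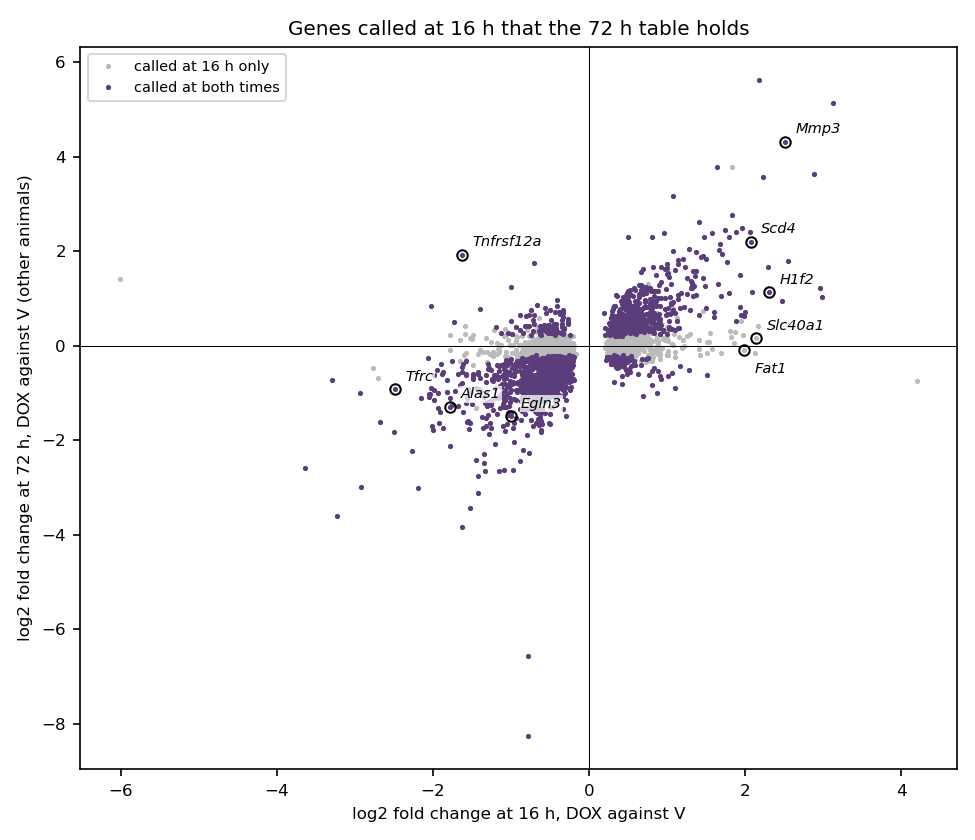
Log2 fold change of DOX against V at 16 h (x axis) and at 72 h in other mice (y axis), 1 point per gene called at 16 h and present in the 72 h table; purple points were called at both times and circles mark genes named in the text. Most purple points lie in the lower left and upper right, with Mmp3 high at both times and Fat1 near 0 at 72 h.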

How the data were processed

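Hearts were sequenced as poly(A)-selected mRNA from RNA with a RIN over 8, per the labels' protocols. The authors deposited expected counts per gene, 1 table for 16 h and 1 for 72 h; the submitters' processing notes name RSEM, DESeq2 and the builds GRCm38 and mm10, but neither the aligner nor the filter on genes. At 72 h, 6 columns whose code matches no label were left out; 1 of the 3 DOX columns kept has a number that no label has and was used as a DOX library without a number.

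The expected counts were rounded and tested with edgeR 4.0.16 (R 4.3.3; glmQLFit robust, TMM, filterByExpr, glmQLFTest, Benjamini-Hochberg at 0.05 over all genes), with all 12 libraries at 16 h (8 residual degrees of freedom) and 6 at 72 h (4). The test was tried on simulated data. No pair of libraries within a group agreed within sampling noise. Alternatives were DESeq2 1.42.0, voom of limma 3.58.1, other scalings and filters, a test against a fold of 1.5, fewer libraries and a replicate block. Gene positions and spans are from GENCODE vM21.

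The comparison, the 63 pathway lists, the 16 marker lists and the rule for named genes were chosen with earlier results of these data known. The rule takes up to 6 called members of a list whose share called is at least 2 times that of all genes and up to 2 per direction of other lists, by smallest p. It adds the 15 largest rises and falls with a mean log2 CPM of at least 1, up to 3 members of the symbol families ranked highest, and the anthracycline list. Cacnb2, Dhodh, Fars2, H3f3a, H3f3b, Hmox1, Macf1, Macroh2a1, Slc40a1, Slc8a1, Tk2, Tnfrsf12a, Trdn and Tuba8 lie outside it and were chosen after their values were seen. The 6 symbols with more than 1 identifier were not named, and some genes that the rule takes are not reported here.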

Additional observations from a re-analysis of the deposited data

Results flagged for a closer look

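For 6 genes named above, the change ran in opposite directions at the 2 times: every DOX library lay on one side of every V library at 16 h and on the other side at 72 h, with an adjusted p under 0.05 at each time in edgeR's quasi-likelihood test. At 16 h alone, the V and DOX libraries did not overlap for 56.4% of all genes. The difference between the times was not tested, since the tables hold different mice and were made separately. H1f0, the linker histone of resting cells, had a log2 fold change of 0.52 ± 0.11 at 16 h and -0.55 ± 0.08 at 72 h. Plxna1, a semaphorin receptor, had a log2 fold change of 1.29 ± 0.23 at 16 h and -0.52 ± 0.12 at 72 h. Prmt1, an arginine methyltransferase, had a log2 fold change of -0.75 ± 0.12 at 16 h and 0.22 ± 0.08 at 72 h. Smg5, a factor of nonsense-mediated decay, had a log2 fold change of 0.54 ± 0.12 at 16 h and -0.22 ± 0.08 at 72 h. Srsf2, a splicing factor, had a log2 fold change of -0.63 ± 0.11 at 16 h and 0.41 ± 0.10 at 72 h. Tnfrsf12a, the TWEAK receptor, had a log2 fold change of -1.63 ± 0.39 at 16 h and 1.92 ± 0.26 at 72 h.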

How the results depend on the processing

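Against a fold of 1.5, 91 genes were called at 16 h, 49 higher and 42 lower. With 1 library left out at a time the 16 h calls numbered 1928 to 2409, of which 855 to 1137 were higher and 1073 to 1287 lower; 1910 of the 3352 calls remained without V replicate 1 and 1982 without V replicate 3. At 72 h the calls numbered 3397 to 4022 with a library left out, 1610 to 1963 higher and 1787 to 2059 lower. The 16 h fit on only the 6 libraries compared gave 4571 calls, 3324 of them shared with the fit on all 12. Without the DOXH libraries, a choice made after seeing the data, it gave 4150. DESeq2 gave 3471 calls, voom 3279, RLE factors 3323, upper quartile factors 3335 and a mean of at least 5 CPM 3227; the filter removed 0 genes at 16 h, so leaving it out could change nothing.

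Of 126 counts of called list members, 65 moved by over 1.5 times without V replicate 1, 61 without V replicate 3, 49 without V replicate 2, 46 without DOX replicate 1, 46 without DOX replicate 2 and 39 without DOX replicate 3; 35 moved on only the 6 libraries compared, none of them to fewer. The 185 called genes named above were also called by DESeq2, voom, RLE and upper quartile factors, the 6-library fit and the fit with the replicate block, and 22 of them against a fold of 1.5. No named gene changed sign in any fit.

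Same-numbered V and DOX libraries did not deviate in the same direction (correlations of -0.11, -0.18 and -0.11). Each DOX library correlated lowest with the V library of its own number, and the other correlations were -0.035 to 0.166. Whether same-numbered libraries share more than a number cannot be told from deviations within groups of 3 libraries. A replicate block left 3064 calls at 16 h, 1461 higher and 1603 lower. At 72 h the block was possible only for the 4 libraries with shared numbers and left 3820 calls.

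With 3 libraries a group and 10285599 to 11074450 counts each, 169 genes were called higher and 73 lower of the 1040 in the lowest of 10 equal classes of level. A gene that was not called is not shown to be unchanged, and genes that did not pass the authors' filter were not analysed here.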
